A study of Mus musculus with 6 samples.

Results

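The 37 genes described here encode the core machinery of autophagy and its cargo receptors, and were taken by symbol from the 23284 genes of the count files. They are listed by the role of their proteins in autophagy, whatever their level in these livers, but with earlier results of these data known. RNA-seq counts were compared between 3 livers expressing FXR-WT and 3 livers expressing Y67F-FXR. FXR is the nuclear receptor for bile acids, and Y67F-FXR carries phenylalanine in place of the tyrosine that is phosphorylated after FGF19 treatment.

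The mice were male FXR-floxed animals, injected at 8 weeks of age with AAV8 vectors. Every mouse received AAV8-TBG-Cre, which deletes the floxed mouse FXR gene. The FXR-WT group also received AAV8-TBG-FXR WT and the Y67F-FXR group received AAV8-TBG-Y67F-FXR. According to the methods, the flag-FXR of this study is of human sequence. The TBG promoter is active in hepatocytes, so both the deletion and the transgene were directed to hepatocytes and not to the other cells of the liver. The livers were taken 4 weeks after injection, when the mice of both groups had eaten chow with 0.5% cholic acid, a bile acid that activates FXR, for 6 h. The libraries therefore show the mutant against the wild-type receptor under bile acid feeding, and mice without FXR or without cholic acid were not analysed here.

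Autophagy encloses cytoplasm in a double membrane, the autophagosome, which fuses with the lysosome. The ULK1 kinase complex starts the process, a lipid kinase complex built on PIK3C3 and Beclin 1 marks the growing membrane, and ATG9, ATG2 and WIPI proteins supply and shape it. A ubiquitin-like conjugation system then attaches ATG8 proteins (the LC3 and GABARAP families) to the membrane, where they bind cargo receptors. In liver, autophagy is known to be induced by fasting and to be held back after a meal, and its genes are under transcriptional control by several nuclear receptors and by TFEB.

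Library totals ranged from 19551113 to 22053320 reads, and the levels below are given as CPM, which relates the read count of a gene to the total of its library after scaling by TMM factors. Nr1h4, the mouse FXR gene, averaged 175 ± 9.84 CPM with Y67F-FXR and 186 ± 30.2 CPM with FXR-WT (SD, n = 3 each). Its reads cannot be divided between the mouse gene and the human transgene. Libraries of the same group differed by gene length. Over the 2491 shortest genes (median length 1152 bp), Y67F-FXR replicate 2 and FXR-WT replicate 1 deviated upward from the gene's mean, by a median log2 value of 0.221 and 0.197. In contrast, the median for Y67F-FXR replicate 1 was -0.198 and that for FXR-WT replicate 3 was -0.181. Hepatocyte markers far exceeded those of the other liver cell types in every library, with a summed level of 94580 to 110000 CPM over 7 genes in FXR-WT and 93500 to 115500 CPM in Y67F-FXR livers.

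All 37 members passed the filter on low counts and were tested with the other expressed genes, 12453 in all. Expression was called higher or lower at an adjusted p under 0.05 with a fold change over 1.5. Ulk1, Atg2a, Atg7 and Atg3, which are 4 of the 37 members, were called higher in Y67F-FXR livers and 0 were called lower. Among all genes tested, 0.546% were called higher and 0.426% were called lower. The 4 genes act at initiation, membrane supply and conjugation. The study names Ulk1, Atg3 and Atg7 from these same livers, so that their calls are not independent evidence of a direction.

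Promoters of these 4 genes are shown because the genes were called in the same direction. They are the 250 bases before the annotated start in RefSeq (GRCm38.p6), 5′ to 3′ on the strand of the gene, with motifs found by search in capitals. The Ulk1 promoter lies at chr5:110810082-110810331 on the minus strand and that of Atg2a at chr19:6241418-6241667 on the plus strand. Those of Atg7 (chr6:114670846-114671095) and Atg3 (chr16:45158579-45158828) are on the plus strand.
Ulk1: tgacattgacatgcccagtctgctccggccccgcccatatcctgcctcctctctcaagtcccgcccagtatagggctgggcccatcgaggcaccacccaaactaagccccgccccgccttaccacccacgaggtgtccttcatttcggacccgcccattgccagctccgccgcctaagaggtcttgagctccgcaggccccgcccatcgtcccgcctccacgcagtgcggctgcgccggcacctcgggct
Atg2a: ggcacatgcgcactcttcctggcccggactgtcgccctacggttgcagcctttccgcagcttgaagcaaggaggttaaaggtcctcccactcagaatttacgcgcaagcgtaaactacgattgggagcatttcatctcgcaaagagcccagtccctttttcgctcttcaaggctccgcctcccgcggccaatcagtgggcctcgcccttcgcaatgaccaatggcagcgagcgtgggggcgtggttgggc
Atg7: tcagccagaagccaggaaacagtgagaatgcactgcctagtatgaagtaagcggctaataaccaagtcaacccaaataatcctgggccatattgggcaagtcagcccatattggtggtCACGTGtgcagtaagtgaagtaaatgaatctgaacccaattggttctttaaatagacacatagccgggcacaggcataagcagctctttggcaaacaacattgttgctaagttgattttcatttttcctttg
Atg3: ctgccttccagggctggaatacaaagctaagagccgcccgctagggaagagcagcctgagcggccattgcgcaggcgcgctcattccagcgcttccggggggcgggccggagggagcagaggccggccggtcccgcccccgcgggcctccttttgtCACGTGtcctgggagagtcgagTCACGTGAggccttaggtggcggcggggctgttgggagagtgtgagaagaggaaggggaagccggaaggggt
The capitals in Atg7 are an E-box core, CACGTG, at -132 to -127. Those in Atg3 are an E-box core at -94 to -89 and a CLEAR-type E-box, TCACGTGA, at -72 to -65, which holds a further core. TFEB and related factors are known to bind E-boxes of the CLEAR type. In the Ulk1 and Atg2a promoters, these letters were not found. The start used for Atg7 lies 27969 bases inside the RefSeq gene, so it is not the outermost start.

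Motifs were searched on both strands of 32851 RefSeq promoter entries that run from 250 bases before to 50 after the start, and 30 of the 37 members had an entry, while Atg12, Atg16l1, Becn1, Bnip3l, Map1lc3a, Pik3c3 and Rb1cc1 had none. Members were counted as genes with a match in any entry, while the shares count entries, which were not limited to genes expressed here. CACGTG was found in 5 of these 30, which are Atg3, Atg5, Atg7, Atg14 and Bnip3, and in 7.15% of all entries. TCACGTGA, which overlaps the core, was found in Atg3 and in 0.974% of all entries. The cyclic AMP element TGACGTCA was found in Atg5 and Atg16l2 and in 1.79% of all entries. No member had the FOXO core TGTTTAC, which was in 3.65% of all entries. FXR with its partner RXR is known to bind an inverted repeat of the half-site AGGTCA spaced by 1 base. The exact core of this repeat, GGTCANTGACC, was found in 0 members and in 0.0396% of all entries. With 1 mismatch allowed, it was found in Nbr1 and in 0.758% of all entries. The single half-site AGGTCA was in 6 members, which are Atg10, Gabarapl2, Nbr1, Pik3r4, Ulk2 and Vmp1, and in 16.3% of all entries. These are matches of letters in short windows and no binding was measured.

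Of the 37 members, 27 were fitted higher and 10 lower in Y67F-FXR livers. Among all genes tested, 52% were fitted higher. The median log2 fold change of the members was 0.12, compared to 0.012 for all genes. Library totals in place of TMM factors moved all genes down alike, to a median of -0.058 for all genes and 0.053 for the members, of which 20 were then fitted higher. Without FXR-WT replicate 1, the median was 0.036. In 10 members (Ulk1, Atg2a, Wipi2, Atg7, Atg3, Atg16l1, Map1lc3a, Map1lc3b, Optn and Bnip3), all 3 Y67F-FXR livers were above all 3 FXR-WT livers, which held for 10.2% of all genes. For 1 member, Vmp1, they were all below, which held for 10.5% of all genes. The groups overlapped in the other 26 members. At an unadjusted p under 0.05, 7 members were higher and 1 was lower. The shares over all genes were 6.75% higher and 6.67% lower. Of the 33 members that were not called, 23 were fitted higher and 10 lower, and their median was 0.067 on the log2 scale.

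**Figure D1:**
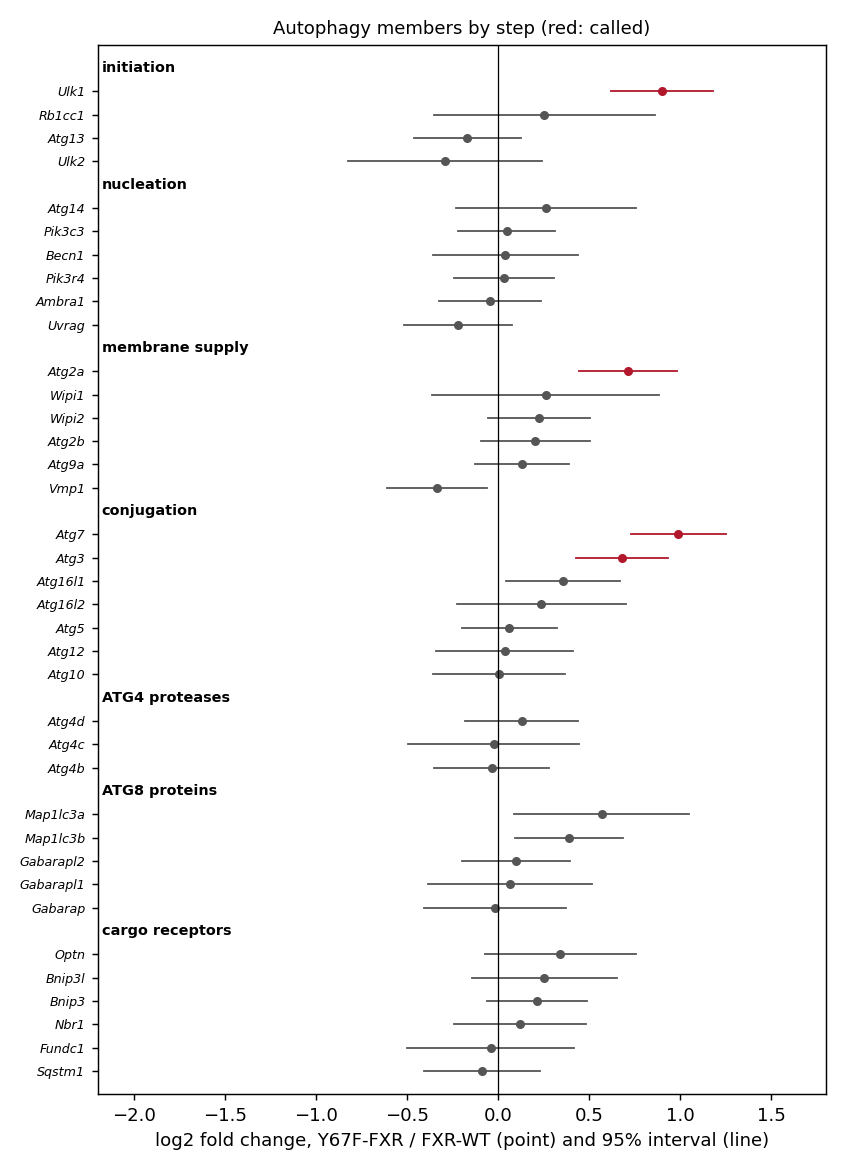
The x axis gives the log2 fold change of Y67F-FXR over FXR-WT livers for the 37 members, with TMM scaling, as a point with its 95% interval, and the members are grouped by step on the y axis. The 4 called members, Ulk1, Atg2a, Atg7 and Atg3, are red and lie between 0.68 and 0.99, while the other intervals cross 0, except those of Vmp1, Atg16l1, Map1lc3a and Map1lc3b.

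The first step, initiation, was represented by the kinases Ulk1 and Ulk2 and by Rb1cc1 (FIP200) and Atg13, which form a complex with them. Ulk1 (mm9, chromosome 5, 111213508 to 111239100) had 35.8, 43.1 and 39.5 CPM in FXR-WT replicates 1 to 3. In the Y67F-FXR livers it had 78.5, 71.1 and 71.2 CPM. The groups did not overlap, and the lowest Y67F-FXR liver was well above the highest FXR-WT liver. Ulk1 rose by 0.90 on the log2 scale (standard error 0.122, 95% interval 0.62 to 1.18), with an adjusted p of 0.0232 by the quasi-likelihood test of edgeR, Benjamini-Hochberg adjusted. This p was 0.0452 without Y67F-FXR replicate 2, but it was between 0.0528 and 0.105 when any of the other 5 libraries was left out. In bulk liver RNA, a change in the cells present and a change in RNA per cell cannot be told apart.

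None of the other initiation genes was called. The paralog Ulk2 averaged 36.7 ± 8.39 CPM with Y67F-FXR and 45.0 ± 11.6 CPM with FXR-WT (SD, n = 3 each), and the log2 fold change was -0.29 (95% interval -0.83 to 0.24). The values were 0.25 (-0.35 to 0.86) for Rb1cc1 and -0.17 (-0.46 to 0.12) for Atg13. With single libraries left out, that of Rb1cc1 ran from 0.027 to 0.51 and that of Ulk2 from -0.48 to -0.10. Thus 2 of the 4 initiation genes were fitted higher and 2 lower, and the median of the step was 0.042 with TMM scaling and -0.024 with library totals. The log2 ratio of Ulk1 to Ulk2 in CPM was 0.11, -0.08 and -0.51 in FXR-WT and 0.81, 1.34 and 0.94 in Y67F-FXR livers.

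Nucleation genes encode the lipid kinase complex, with the catalytic subunit Pik3c3 (VPS34), its partner Pik3r4, the scaffold Becn1, and the alternative subunits Atg14 and Uvrag. Ambra1 encodes a regulator of Beclin 1. None was called, none had an unadjusted p under 0.05, and the groups overlapped for all 6. The log2 fold changes ran from -0.22 to 0.26, with a median of 0.036. With TMM scaling 4 of the 6 were fitted higher, but with library totals 1 of 6 was, and the median was -0.033. Uvrag had the smallest p of the step, with 24.7, 29.9 and 30.0 CPM in FXR-WT and 25.7, 22.9 and 24.1 CPM in Y67F-FXR livers. The log2 fold change of Uvrag was -0.22 (95% interval -0.52 to 0.07), with an adjusted p of 0.532 by the quasi-likelihood test of edgeR, Benjamini-Hochberg adjusted. The values of Pik3c3 lay close together, at 17.8 ± 0.896 CPM in FXR-WT and 18.4 ± 0.367 CPM in Y67F-FXR livers (SD, n = 3 each), and the 95% interval of its log2 fold change was -0.22 to 0.31. That of Becn1 was -0.36 to 0.44, and that of Pik3r4 was -0.24 to 0.31. Atg14, which directs the complex to autophagosome formation, had a log2 fold change of 0.26 (-0.23 to 0.76), which ran from 0.064 to 0.44 with single libraries left out, and that of Ambra1 was -0.04 (-0.33 to 0.24). Becn1 shared 435 exon bases with Cntd1, and its counts are uncertain for that reason.

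Among the 6 genes of membrane supply, Atg2a was called higher. ATG2 proteins transfer lipids from the endoplasmic reticulum to the growing membrane. Atg2a (mm9, chromosome 19, 6241668 to 6262304) had 34.3, 40.8 and 37.8 CPM in FXR-WT and 63.9, 61.2 and 59.9 CPM in Y67F-FXR livers. Every Y67F-FXR liver was above every FXR-WT liver. Atg2a rose by 0.71 on the log2 scale (standard error 0.117, 95% interval 0.44 to 0.98), with an adjusted p of 0.0381 by the quasi-likelihood test of edgeR, Benjamini-Hochberg adjusted. This p was 0.0712 with library totals and between 0.0867 and 0.158 with any of the 6 libraries left out.

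Its paralog Atg2b had a log2 fold change of 0.20 (95% interval -0.10 to 0.50) and was not called. The log2 ratio of Atg2a to Atg2b was 0.68, 0.59 and 0.64 in FXR-WT livers and 1.13, 1.10 and 1.20 in Y67F-FXR livers. For Atg9a, which encodes a lipid scramblase carried on vesicles to the growing membrane, the log2 fold change was 0.13 (-0.13 to 0.39). Wipi1 and Wipi2 encode proteins that bind the lipid made by the kinase complex. Their log2 fold changes were 0.26 (-0.36 to 0.89) and 0.22 (-0.06 to 0.51), and the groups overlapped for Wipi1 but not for Wipi2. That of Wipi1 ran from 0.0076 without FXR-WT replicate 1 to 0.53 without FXR-WT replicate 3. Neither was called.

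Vmp1, which encodes a lipid scramblase of the endoplasmic reticulum, was the member fitted lowest. Its levels were 56.8, 68.0 and 67.1 CPM in FXR-WT and 51.3, 49.8 and 50.8 CPM in Y67F-FXR livers. The groups did not overlap. Its log2 fold change was -0.34 (95% interval -0.61 to -0.06), with an unadjusted p under 0.05, but the adjusted p was 0.261 by the quasi-likelihood test of edgeR, Benjamini-Hochberg adjusted. Vmp1 shared 92 exon bases with Mir21. In all, 5 genes of membrane supply were fitted higher and 1 lower, and the median of the step was 0.21.

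The conjugation step held 2 called members, Atg7 and Atg3. ATG7 is the single E1-like enzyme of both conjugation reactions, ATG3 is the E2-like enzyme that attaches ATG8 proteins to lipid, and ATG10 is the E2-like enzyme that joins ATG12 to ATG5. Atg7 (mm9, chromosome 6, 114593119 to 114810632) had 51.2, 59.7 and 56.6 CPM in FXR-WT and 109, 111 and 112 CPM in Y67F-FXR livers. Its level in every Y67F-FXR liver was well above that in each FXR-WT liver. Atg7 rose by 0.99 on the log2 scale, a 1.99-fold difference (standard error 0.113, 95% interval 0.73 to 1.25), with an adjusted p of 0.0164 by the quasi-likelihood test of edgeR, Benjamini-Hochberg adjusted. This p stayed between 0.0306 and 0.0486 without FXR-WT replicate 1 or 2 or Y67F-FXR replicate 1 or 2. It was 0.0834 without FXR-WT replicate 3 and 0.0789 without Y67F-FXR replicate 3.

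Atg3 (mm9, chromosome 16, 45158942 to 45188651), whose promoter holds the CLEAR-type E-box shown above, had 105, 117 and 119 CPM in FXR-WT livers. In Y67F-FXR livers it had 180, 183 and 185 CPM. The groups did not overlap, and the 3 Y67F-FXR values were close to each other. Atg3 rose by 0.68 on the log2 scale (standard error 0.110, 95% interval 0.43 to 0.94), with an adjusted p of 0.0378 by the quasi-likelihood test of edgeR, Benjamini-Hochberg adjusted. This p was 0.064 with library totals and between 0.0845 and 0.193 with any of the 6 libraries left out. The log2 ratio of Atg7 to Atg3 was -1.04, -0.97 and -1.07 in FXR-WT livers, and it was -0.72 in each Y67F-FXR liver.

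The partners of these enzymes were not called. Atg10 had 5.19 ± 0.229 CPM in FXR-WT and 5.21 ± 0.275 CPM in Y67F-FXR livers (SD, n = 3 each), with a log2 fold change of 0.01 and a 95% interval of -0.36 to 0.37. For the conjugated pair Atg5 and Atg12, the log2 fold changes were 0.06 (-0.20 to 0.32) and 0.04 (-0.34 to 0.41). Atg16l1 encodes the protein that brings the ATG12-ATG5 conjugate to the membrane. It had 32.7, 29.9 and 29.3 CPM in FXR-WT and 34.4, 44.9 and 38.3 CPM in Y67F-FXR livers. The groups were apart, with Y67F-FXR replicate 2 highest. The log2 fold change of Atg16l1 was 0.35 (0.04 to 0.67), with an adjusted p of 0.307 by the quasi-likelihood test of edgeR, Benjamini-Hochberg adjusted. That of Atg16l2 was 0.24 (-0.23 to 0.70). All 7 conjugation genes were fitted higher with TMM scaling, but 4 of 7 with library totals, where Atg5, Atg10 and Atg12 were below 0.

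**Figure D2:**
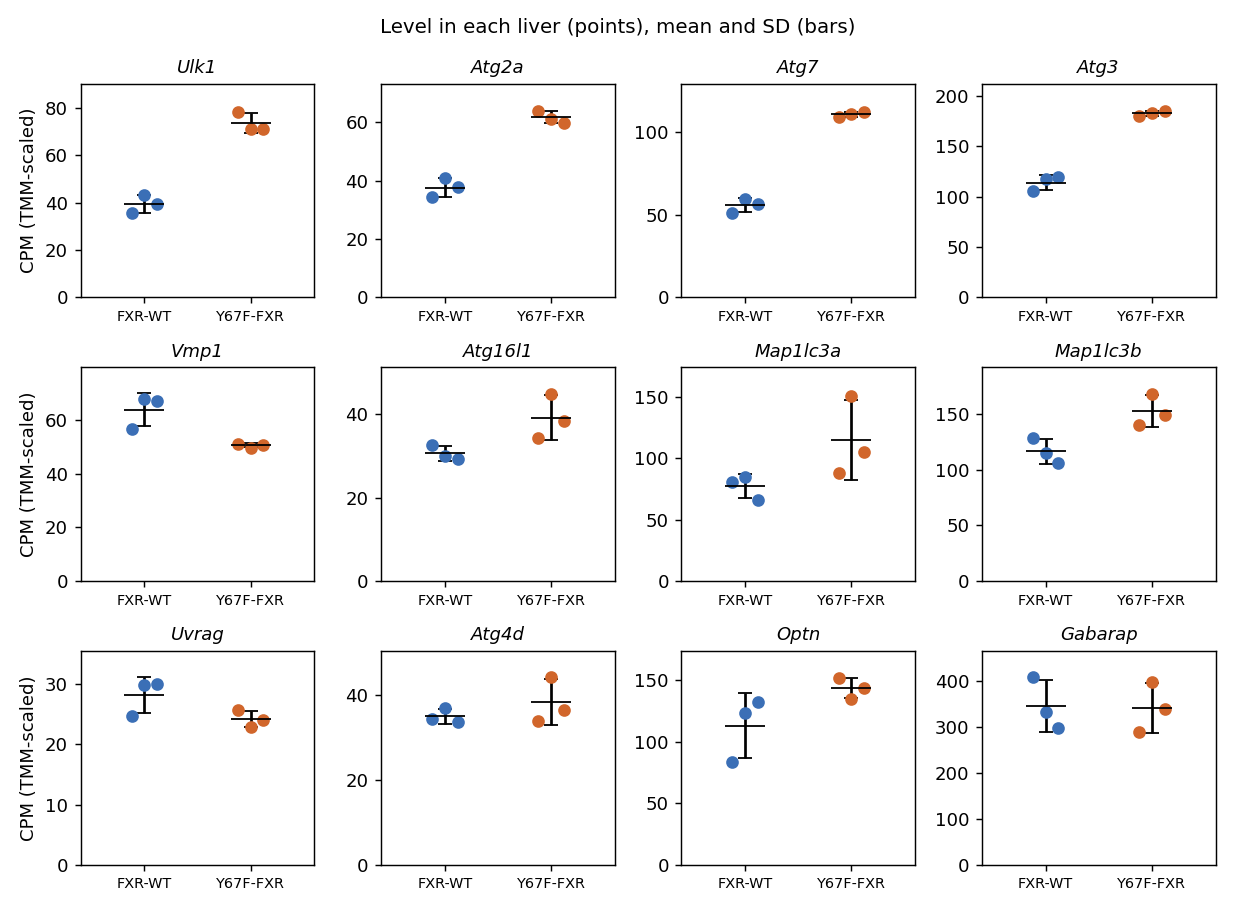
Each panel gives the level of 1 gene in CPM, scaled by TMM factors, from 0 on the y axis, with a point for each of the 3 FXR-WT (blue) and 3 Y67F-FXR (orange) livers and bars for the mean ± SD. For Ulk1, Atg2a, Atg7 and Atg3 the groups are well apart, with SDs from 1.54 to 7.54 CPM, and for Gabarap they overlap.

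ATG4 proteases cut ATG8 proteins before conjugation and release them from the membrane afterwards. Of the 3 members of this step, 1 was fitted higher and 2 lower, the median was -0.02, and none was called. Atg4d had the smallest p, with 34.4, 36.9 and 33.7 CPM in FXR-WT and 34.0, 44.4 and 36.5 CPM in Y67F-FXR livers. The groups overlapped. Its log2 fold change was 0.13 (95% interval -0.18 to 0.44), with an adjusted p of 0.762 by the quasi-likelihood test of edgeR, Benjamini-Hochberg adjusted. Atg4d shared 792 exon bases with Kri1. The log2 fold changes of Atg4b and Atg4c were -0.04 (-0.35 to 0.28) and -0.02 (-0.49 to 0.44), and both signs changed when single libraries were left out.

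The 5 ATG8 proteins are the substrates of the conjugation system, and none of their genes was called. Map1lc3b (LC3B) had 129, 115 and 106 CPM in FXR-WT and 141, 168 and 149 CPM in Y67F-FXR livers. Its groups did not overlap, and its log2 fold change was 0.39 (95% interval 0.09 to 0.69), with an adjusted p of 0.237 by the quasi-likelihood test of edgeR, Benjamini-Hochberg adjusted. Map1lc3a (LC3A) had 80.9, 84.7 and 66.4 CPM in FXR-WT livers, compared to 87.7, 151 and 105 CPM in Y67F-FXR livers. The groups were again apart, but narrowly, and Y67F-FXR replicate 2 was far above the other livers. Its log2 fold change was 0.57 (0.09 to 1.05), with an adjusted p of 0.283 by the quasi-likelihood test of edgeR, Benjamini-Hochberg adjusted. Without Y67F-FXR replicate 2, the log2 fold change of Map1lc3a was 0.31.

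The log2 fold changes of the GABARAP genes were -0.02 (-0.41 to 0.37) for Gabarap, 0.07 (-0.38 to 0.52) for Gabarapl1 and 0.10 (-0.20 to 0.40) for Gabarapl2, and the groups overlapped in each. With TMM scaling 4 of the 5 ATG8 genes were fitted higher, and 3 of 5 with library totals. Gabarap had 409, 333 and 298 CPM in FXR-WT and 290, 397 and 340 CPM in Y67F-FXR livers. It was highest in FXR-WT replicate 1 and Y67F-FXR replicate 2, the libraries in which short genes were high. The exon lengths of Gabarap, Map1lc3a and Gabarapl2 are 1122, 1045 and 980 bp. Gabarapl2 did not follow this order, with 16.4, 19.3 and 19.5 CPM in FXR-WT and 19.0, 19.1 and 21.1 CPM in Y67F-FXR livers. It was lowest in FXR-WT replicate 1 and not highest in Y67F-FXR replicate 2. With offsets for gene length, the log2 fold changes of Gabarap, Map1lc3a and Gabarapl2 were -0.01, 0.55 and 0.10, and that of Map1lc3b was 0.40. The adjusted p of Map1lc3a and Map1lc3b was then 0.0718 and 0.0744 by the quasi-likelihood test of edgeR, Benjamini-Hochberg adjusted, and neither was called. Gabarapl1, at 1773 bp, was lowest in FXR-WT replicate 1 and Y67F-FXR replicate 2, and it shared 47 exon bases with 1700101I11Rik.

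Cargo receptors link ubiquitinated proteins or mitochondria to ATG8 proteins. None of the 6 was called or had an unadjusted p under 0.05. Sqstm1 (p62), the receptor for ubiquitinated proteins that is itself degraded by autophagy, had 590 ± 59.2 CPM in FXR-WT and 555 ± 61.9 CPM in Y67F-FXR livers (SD, n = 3 each). The log2 fold change of Sqstm1 was -0.09 (95% interval -0.41 to 0.23), and that of Nbr1, a related receptor, was 0.12 (-0.25 to 0.48). Optn (optineurin) had 83.4, 124 and 133 CPM in FXR-WT and 152, 135 and 144 CPM in Y67F-FXR livers. The groups did not overlap, although FXR-WT replicate 3 came close to Y67F-FXR replicate 2. Its log2 fold change was 0.34 (-0.07 to 0.76), with an adjusted p of 0.474 by the quasi-likelihood test of edgeR, Benjamini-Hochberg adjusted, and it was 0.16 without FXR-WT replicate 1.

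The mitochondrial receptors Bnip3 and Bnip3l had log2 fold changes of 0.21 (-0.06 to 0.49) and 0.25 (-0.14 to 0.65), and the groups were apart for Bnip3 alone. Fundc1, also a mitochondrial receptor, had 6.16 ± 1.05 CPM in FXR-WT and 5.99 ± 0.935 CPM in Y67F-FXR livers (SD, n = 3 each), with a log2 fold change of -0.04 (-0.50 to 0.42). Of the 6 receptor genes, 4 were fitted higher and 2 lower, with a median of 0.17.

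The levels of the members spanned a wide range. In CPM per kilobase of exon, the mean over the 6 livers was 307 ± 44.3 for Gabarap, 286 ± 28.8 for Sqstm1 and 233.5 ± 40.1 for Gabarapl1 (SD, n = 6). Next in the order came Bnip3 at 143.5, Map1lc3a at 91.9, Map1lc3b at 78.6 and Atg3 at 73.7. For the last pair, the means in FXR-WT livers were 68.1 for Map1lc3b and 56.6 for Atg3. In Y67F-FXR livers they were close together, at 89.1 and 90.8. The level of Atg7 was 13.8 in FXR-WT and 27.5 in Y67F-FXR livers, that of Ulk1 was 7.59 and 14.2, and that of Atg2a was 5.93 and 9.73, so their places in the order depend on the group. The lowest means over the 6 livers were those of Rb1cc1 (2.98), Atg16l2 (2.89) and Atg2b (2.56). Of the 36 neighbouring pairs in this order, 30 overlapped in their mean ± SD over the 6 livers. These SDs include any difference between the groups, and whether neighbours differ within livers was not tested.

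**Figure D3:**
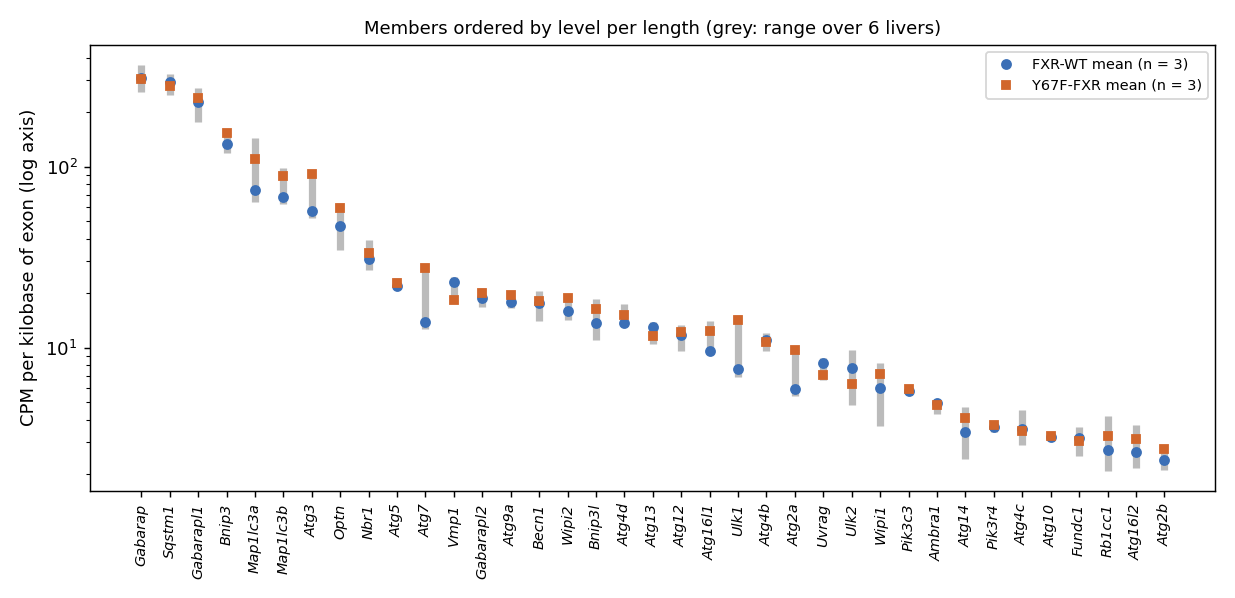
The mean level of each member in FXR-WT (blue circles, n = 3) and Y67F-FXR livers (orange squares, n = 3) is plotted in CPM per kilobase of exon on a log axis, ordered by the mean over 6 livers, with the range over the livers in grey. Gabarap is first at 307 and Atg2b is last at 2.56, and Atg3, Atg7, Ulk1 and Atg2a have the groups at opposite ends of their ranges.

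Related members were compared in 9 pairs as log2 ratios within each liver, which takes out any scaling of the library. The pairs were chosen after the values were seen. With 3 livers in each group, 0.1 is the smallest p that an exact two-sided permutation test can reach. The ratios of Ulk1 to Ulk2, Atg2a to Atg2b, Atg7 to Atg10, Atg7 to Atg3, Map1lc3a to Gabarap and Map1lc3b to Gabarap did not overlap between the groups. Their means were higher in Y67F-FXR livers by 1.19, 0.51, 0.99, 0.31, 0.56 and 0.41 on the log2 scale (exact permutation p = 0.1 for each, 0.15 adjusted over 9 pairs). The ratios of Wipi1 to Wipi2, Atg16l1 to Atg16l2 and Bnip3 to Bnip3l overlapped, with mean differences of 0.09, 0.11 and -0.04 (exact permutation p = 0.9, 0.5 and 0.8).

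Of 67 other genes of the pathway, all were tested and none was called. Of these, 45 were fitted higher and 22 lower, and the median was 0.099 on the log2 scale. At an unadjusted p under 0.05, 5 were higher and 3 lower. Among all genes tested, 52% were fitted higher, and 6.75% were higher and 6.67% lower at that p. Transcriptional regulators of autophagy (13 genes) had 9 fitted higher and 4 lower, with a median of 0.17. Tfeb, which encodes a master regulator of lysosomal and autophagy genes, had 13.6, 11.9 and 11.4 CPM in FXR-WT and 26.5, 17.8 and 28.8 CPM in Y67F-FXR livers. The groups did not overlap. Its log2 fold change was 0.99 (95% interval 0.54 to 1.44), with an adjusted p of 0.0721 by the quasi-likelihood test of edgeR, Benjamini-Hochberg adjusted. Ppara, the nuclear receptor of the fasted state, had a log2 fold change of 0.58 (0.12 to 1.05), with an adjusted p of 0.255 by the quasi-likelihood test of edgeR, Benjamini-Hochberg adjusted. Tfe3, a relative of Tfeb that was named after its values were seen, had a log2 fold change of -0.38 (-0.74 to -0.02).

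Other selective autophagy receptors (13 genes) had 11 fitted higher and 2 lower, with a median of 0.15. Calcoco1, a receptor for the endoplasmic reticulum and Golgi, had 21.8, 34.1 and 31.9 CPM in FXR-WT and 54.3, 59.5 and 59.5 CPM in Y67F-FXR livers. Its groups did not overlap. The log2 fold change of Calcoco1 was 0.98 (0.57 to 1.39), with an adjusted p of 0.0541 by the quasi-likelihood test of edgeR, Benjamini-Hochberg adjusted. Phb2, a receptor of the inner mitochondrial membrane, had a log2 fold change of 0.29 (-0.05 to 0.64) with overlapping groups.

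Other autophagosome genes (19) had 14 fitted higher and 5 lower, with a median of 0.10. Wdr45, which encodes a further WIPI protein, had a log2 fold change of 0.47 (0.15 to 0.79), and Tmem41b, a scramblase that acts with VMP1, had -0.42 (-0.72 to -0.12). The adjusted p was 0.183 for Wdr45 and 0.203 for Tmem41b by the quasi-likelihood test of edgeR, Benjamini-Hochberg adjusted. Nutrient and energy kinases with their regulators (22 genes), which include Mtor and the AMPK subunits, had 11 fitted higher and 11 lower, with a median of 0.027. Sesn2, a stress-induced inhibitor of mTORC1, had a log2 fold change of 0.86 (0.15 to 1.57) with overlapping groups, and Rraga, a Rag GTPase, had -0.34 (-0.66 to -0.01). With library totals, the counts fitted higher were 8 of 13, 11 of 13, 12 of 19 and 8 of 22 in the order of these lists.

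**Figure D4:**
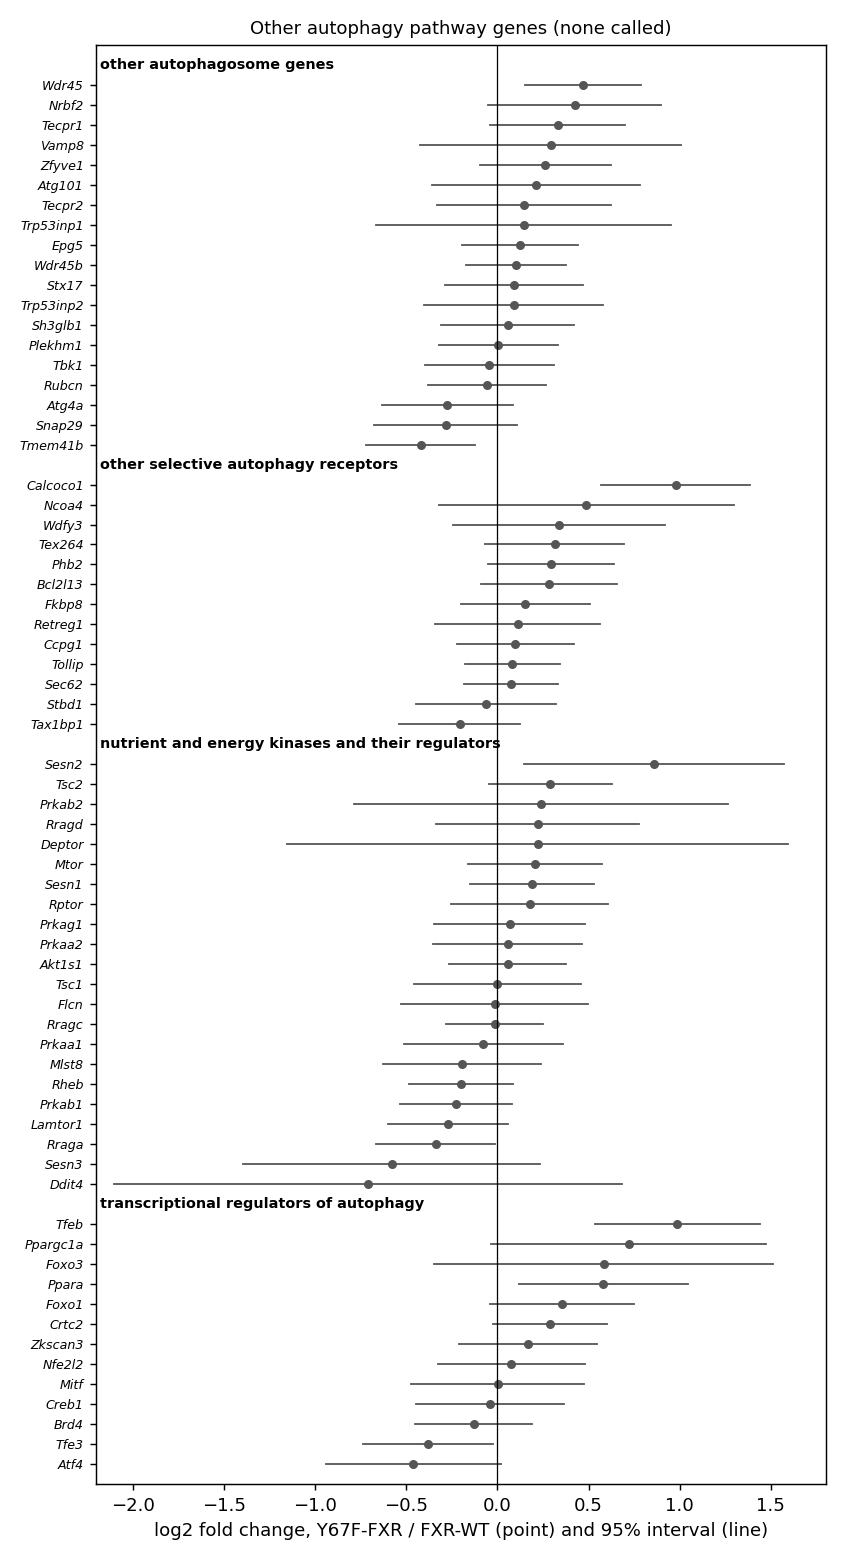
The x axis gives the log2 fold change of Y67F-FXR over FXR-WT livers, with TMM scaling, for 67 pathway genes outside the 37 members, as points with 95% intervals, grouped by list. None was called, and Tfeb (0.99) and Calcoco1 (0.98) have the highest points.

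Markers of other liver cell types were measured in the same libraries. None was called. The neutrophil genes S100a8 (-2.73) and S100a9 (-1.95), the stellate cell genes Lrat (-1.15), Col1a1 (-0.77) and Acta2 (-1.95), and Lyve1 (-0.89), a marker of sinusoidal endothelium, had the log2 fold changes given and an unadjusted p under 0.05, and no marker passed that threshold upward. Acta2 had 9.88 CPM in FXR-WT replicate 1, above the other 5 livers, of which the lowest had 0.826 CPM. Of 8 stellate cell markers, 7 were fitted lower, and their summed level was 210 to 229 CPM in FXR-WT and 153 to 212 CPM in Y67F-FXR livers. That of 11 Kupffer cell and leukocyte markers was 150 to 211 CPM and 120 to 273.5 CPM. It was 166 to 193 CPM and 172 to 178 CPM for 6 sinusoidal endothelial markers and 46.0 to 71.1 CPM and 54.1 to 60.6 CPM for 5 cholangiocyte markers. The part of these cells in the values of the members was not tested.

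**Figure D5:**
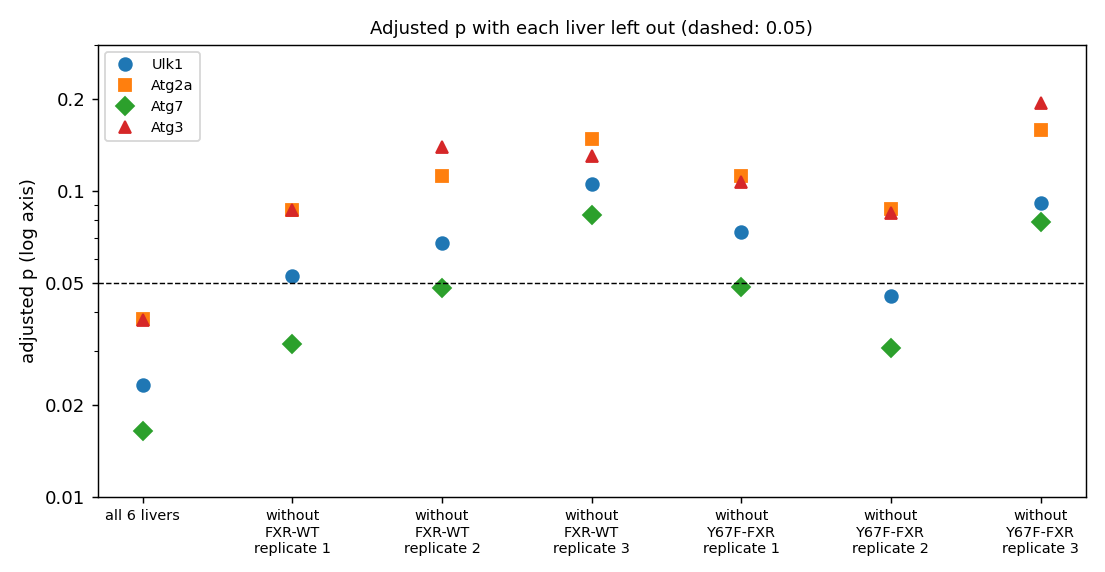
The adjusted p of the 4 called members (quasi-likelihood test of edgeR) is plotted on a log axis for the fit of all 6 livers and for each fit without 1 liver, with a dashed line at 0.05. Atg7 is below 0.05 in 4 of the 6 reduced fits, Ulk1 in 1, and Atg2a and Atg3 in 0.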

How the data were processed

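RNA of 6 liver samples was sequenced as paired-end reads, with 1 library per sample. The study had more mice per group than libraries, and it does not state which mice were sequenced. Per the labels and the file headers, the authors trimmed reads with Trimmomatic 0.36, aligned them with STAR and counted reads per gene with featureCounts 1.4.6-p4 on UCSC mm9 genes, without regard to strand. The deposited values were raw counts and were not normalized. A deposited table of the authors' own comparison, with log2 fold changes, mean log2 CPM, p-values and false discovery rates, was not used. The submitters' processing notes give STAR 2.5.3a, and the methods name another version.

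The test used edgeR 4.0.16 in R 4.3.3: filterByExpr, TMM factors, glmQLFit and glmQLFTest without pairing of the mice, with Benjamini-Hochberg adjustment over 12453 genes. Standard errors come from the F statistic. The common biological coefficient of variation was 0.194. DESeq2 1.42.0, the likelihood ratio test, other scaling and filters, gene length offsets (loess span 0.3), the replicate number as a block and the removal of single libraries were alternatives. Fits were run on simulated counts whose set changes were larger than those of the called members, without a gene length trend. The simulation therefore does not test calls of this size. Exact permutation tests used scipy 1.17.1. Within each group, pairs of livers differed by more than counting noise (median chi-square per gene 0.899 to 2.04, against 0.455). This check cannot tell biological from technical replicates. Each library was kept as a replicate because, per the methods, it came from its own biological sample.

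Members, lists, motifs and tests were chosen with earlier results of these data known. Values for every liver are given for members with an adjusted p under 0.05 and for the member with the smallest p in each step. Others with an unadjusted p under 0.05, and Gabarap, were added after their values were seen. From each pathway list the 2 genes with the smallest p are named, and of the markers those with p under 0.05. Of the listed genes outside the members, 7 were matched through older symbols. Cftr and the 4 globin genes did not pass the filter. Gene coordinates are mm9 as in the files and promoter coordinates are GRCm38.p6, and the builds were not mixed.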

Additional observations from a re-analysis of the deposited data

How the results depend on the processing

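The number of members called higher was 4, and it was also 4 with RLE or upper-quartile factors, DESeq2, the likelihood ratio test, no filter, a filter of 1 CPM, no fold minimum and gene length offsets. It was 2 with library totals (Atg7 and Ulk1) and from 0 to 2 with single libraries left out. Without both FXR-WT replicate 1 and Y67F-FXR replicate 2, an alternative chosen after seeing the data, it was 4. In no alternative was a member called lower. The 7 members with an unadjusted p under 0.05 that were higher became from 4 to 7 with single libraries left out, and the 1 that was lower became from 0 to 2. None of the 4 called members changed direction. Over all genes, 215 were called higher and 216 lower by DESeq2, 221 and 226 by the likelihood ratio test, 123 and 124 with gene length offsets, 86 and 81 without a filter, and 52 and 68 with library totals, against 68 and 53. With single libraries left out, they ran from 2 to 35 higher and from 7 to 33 lower.

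Members with a log2 fold change near 0 changed sign. With library totals, it was -0.0277 for Becn1, -0.0237 for Pik3c3, -0.0376 for Pik3r4, -0.065 for Atg10, -0.00758 for Atg5, -0.0312 for Atg12 and -0.00196 for Gabarapl1. With single libraries left out, the ranges were -0.0576 to 0.18 for Becn1, -0.00503 to 0.095 for Pik3r4, -0.0949 to 0.0198 for Ambra1, -0.0254 to 0.0483 for Atg10, -0.10 to 0.12 for Atg12, -0.12 to 0.0364 for Atg4b, -0.26 to 0.0781 for Atg4c, -3.85e-05 to 0.21 for Atg4d, -0.15 to 0.12 for Gabarap, -0.0939 to 0.20 for Gabarapl1, -0.00874 to 0.21 for Nbr1 and -0.18 to 0.0356 for Fundc1. Without both FXR-WT replicate 1 and Y67F-FXR replicate 2, it was -0.00687 for Pik3r4, -0.0182 for Atg12, 0.0182 for Atg4c, -0.0162 for Atg4d and 0.0786 for Fundc1. Library totals shifted the median of all genes from 0.0121 to -0.0575, and the members with them. The cause of the other sign changes was not tested.

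The deviations of same-numbered livers had correlations of -0.517, -0.0804 and 0.121 for numbers 1, 2 and 3. The largest were 0.537 for FXR-WT replicate 1 with Y67F-FXR replicate 2, and 0.578 for FXR-WT replicate 3 with Y67F-FXR replicate 1. These libraries also deviated alike by gene length, so the correlations cannot decide whether the numbers pair the mice. The labels give no pairing. With the replicate block, 0 members were called higher, although the log2 fold changes were 0.90 for Ulk1, 0.72 for Atg2a, 0.99 for Atg7 and 0.68 for Atg3. At an unadjusted p under 0.05, 5 members were then higher and 0 lower, and 2 genes in all were called higher and 6 lower.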
